A study of Mus musculus with 32 samples.

Results

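Knockdown of CTCF in SSEA1+ cells of a fibroblast reprogramming culture was examined by setting the peak list of cells with CTCF shRNA against that of cells with control shRNA. Peaks are stretches of open chromatin found by ATAC-seq, in which a transposase inserts sequencing adapters where DNA is accessible. Overlapping intervals were merged within each list, and peaks of both lists with 1 bp or more in common were shared. A peak found with control shRNA only was lost, and a peak found with CTCF shRNA only was gained. The 2 lists together held 194489 sites, of 267322 in all 10 lists of day 0 and sorted cells.

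The cells were mouse embryonic fibroblasts of OG2 mice, which carry a GFP reporter of Pou5f1 (Oct4), driven towards pluripotency with Oct4, Sox2, Klf4 and c-Myc in stem cell medium with vitamin C. The labels' protocols describe both separate retroviruses and a doxycycline-inducible lentivirus for these factors, and do not say which gave these samples. The control group holds 2 samples with an shRNA labelled shLuci, 1 of day 6 and 1 of day 9, and the knockdown group 2 samples with CTCF shRNA of the same days, all sorted as SSEA1+ and of reprogramming cells. Each group has 1 deposited list, so days and samples cannot be told apart, and no difference below has a replicate check or a p-value. For comparison the text uses the control and CTCF shRNA lists of day 0 fibroblasts, of Thy1+ cells (days 3 to 9), of SSEA1-Thy1- cells (days 6 and 9) and of GFP+ cells (day 12), likewise 1 list per group.

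CTCF is a zinc finger protein that binds a long DNA motif, stops cohesin as it extrudes loops and so sets the borders of chromatin domains. Here the fucosyltransferase gene Fut4 was taken as the marker gene of the carbohydrate SSEA1. In fibroblast reprogramming, cells first lose the surface marker Thy1, then gain SSEA1, and at the end activate the endogenous Pou5f1 gene. Along this route enhancers of the fibroblast state, many bound by AP-1, TEAD and RUNX factors, close, and enhancers of the stem cell state open.

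The likeness of the lists bears on every result below. By base pair overlap the SSEA1+ list with CTCF shRNA stood nearer to some lists of other populations than to its own control. Its base pair overlap (shared length over joint length, where 1 is identity) was 0.765 with the Thy1+ list with CTCF shRNA, 0.731 with the SSEA1-Thy1- list with CTCF shRNA, 0.717 with the Thy1+ control and 0.643 with the SSEA1+ control. By the same overlap the SSEA1+ control list was nearest to the SSEA1-Thy1- lists, at 0.747 with CTCF shRNA and 0.743 in the control. It overlapped the Thy1+ control by 0.492. Lists of unequal length cannot reach 1 in this measure. Identical intervals, as a share of the shorter list, gave the SSEA1+ list with CTCF shRNA another order. The share was 93.7% with the Thy1+ list with CTCF shRNA and 92.1% with the SSEA1+ control. It was 92.0% with the SSEA1-Thy1- control, 89.6% with the SSEA1-Thy1- list with CTCF shRNA and 86.0% with the Thy1+ control. Impure sorting, swapped libraries and cells that reached SSEA1 with fibroblast sites still open cannot be told apart from these lists. A list of peaks from sorted cells also cannot tell a site open in fewer cells from a site less open in each.

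Fut4, on chromosome 9 at 14748459 to 14752122 (GRCm38), had a peak at its start in both SSEA1+ lists, but also in each of the other 8 lists, so its start does not mark the sort. Within 50 kb Fut4 had 7 peaks in the SSEA1+ control and 12 with CTCF shRNA, at least 1.5 times more but not so after scaling by list length, and within 10 kb 2 and 1. Around Thy1, the fibroblast glycoprotein of the other gate, 10 peaks lay within 50 kb with control shRNA and 19 with CTCF shRNA in SSEA1+ cells, against 22 and 21 in the Thy1+ lists. The homeobox gene Prrx1 had 13 and 28, the collagen genes Col1a1 and Col1a2 19 and 25 and 9 and 20, and the basic helix-loop-helix gene Twist2 12 and 22. Stem cell markers moved little by comparison: Nanog had 16 and 15, Sall4 10 and 9, Esrrb 18 and 19, and Dppa5a 11 and 14. Before scaling, Fut4 and all 5 fibroblast markers had more peaks within 50 kb with CTCF shRNA. The 4 stem cell markers differed by 3 peaks at most. After scaling by list length only Prrx1 and Col1a2 of the fibroblast markers stayed at least 1.5 times higher, and Col1a1 had 19 and 18.5. The stem cell markers were then lower with CTCF shRNA: Nanog at 16 and 11.1, Sall4 10 and 6.65, Esrrb 18 and 14.0, Dppa5a 11 and 10.3. But the median gene had a log2 ratio of 0.23, below the 0.44 of the whole lists, so this scaling lowers the median gene too. By unscaled log2 ratio Dppa5a (0.32) lay above that median gene, and Nanog, Sall4 and Esrrb (-0.09, -0.14 and 0.07) below it. The targeted gene, Ctcf, had 15 peaks in either list, which says nothing of its RNA or protein.

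Sequences could be shown for promoters, taken from RefSeq (GRCm38.p6) as the 250 bases before and 50 after a gene start. The 4 printed here were taken from list genes whose start peak was in only 1 of the SSEA1+ lists and whose promoter window itself held that peak. Neurog2 (gained) and the second listed start of Runx3 (lost) also met this and are not printed. Of the motifs named below, the Neurog2 window held 1 RUNX match only and that Runx3 window none. Col6a1, a chain of collagen VI, and Ankrd1, an output gene of YAP and TEAD, had their start peak with CTCF shRNA only. Nanog, the homeobox factor of the stem cell network, and Crb3, a polarity protein of epithelia, had theirs in the control only. Capitals mark matches, on either strand, to 6 short motifs: AP-1 (TGANTCA), TEAD (GGAATG), RUNX (TGTGGTT), the CTCF core (CNAGNNGGC), the octamer (ATGCAAAT) and KLF (GGGNGTGG).
Col6a1 (chr10:76725995-76726294, minus strand), with 1 AP-1 match: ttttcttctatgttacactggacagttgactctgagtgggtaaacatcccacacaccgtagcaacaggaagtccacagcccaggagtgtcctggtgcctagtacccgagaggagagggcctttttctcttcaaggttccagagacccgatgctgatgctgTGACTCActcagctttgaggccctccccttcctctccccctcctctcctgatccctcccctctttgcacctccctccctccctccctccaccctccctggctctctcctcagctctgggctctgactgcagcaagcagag
Ankrd1 (chr19:36119795-36120094, minus strand), with 2 TEAD matches and 1 CTCF core match: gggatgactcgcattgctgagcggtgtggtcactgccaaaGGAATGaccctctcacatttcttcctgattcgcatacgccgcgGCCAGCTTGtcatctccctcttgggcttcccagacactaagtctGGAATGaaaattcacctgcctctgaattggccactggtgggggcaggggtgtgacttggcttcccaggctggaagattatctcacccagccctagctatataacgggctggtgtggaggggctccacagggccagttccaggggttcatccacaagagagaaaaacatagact
Nanog (chr6:122707239-122707538, plus strand), with 2 KLF matches and 1 CTCF core match between them: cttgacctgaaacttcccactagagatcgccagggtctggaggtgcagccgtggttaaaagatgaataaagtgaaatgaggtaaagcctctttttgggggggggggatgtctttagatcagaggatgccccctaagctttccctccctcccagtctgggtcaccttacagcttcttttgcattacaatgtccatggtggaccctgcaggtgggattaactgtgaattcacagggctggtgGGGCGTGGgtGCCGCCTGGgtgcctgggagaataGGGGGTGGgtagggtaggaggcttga
Crb3 (chr17:57061951-57062250, plus strand), with 1 TEAD match and 1 KLF match: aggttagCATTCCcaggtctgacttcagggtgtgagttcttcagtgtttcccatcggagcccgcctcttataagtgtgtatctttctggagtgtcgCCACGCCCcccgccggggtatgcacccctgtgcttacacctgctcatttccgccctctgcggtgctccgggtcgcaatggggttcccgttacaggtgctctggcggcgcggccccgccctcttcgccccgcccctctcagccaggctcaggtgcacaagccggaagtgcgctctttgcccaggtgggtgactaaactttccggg
A match is a run of letters and not a measured binding site.

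In number, gained peaks far exceeded lost ones. The control list held 135749 peaks after merging and the CTCF shRNA list 183640, a ratio of 1.35. Of the control peaks 124900 were shared and 10849 lost, which is 7.99% (exact Clopper-Pearson 95% interval 7.85% to 8.14%, counting error over peaks only). Of the peaks with CTCF shRNA 58741 were gained, or 32.0% (31.8% to 32.2%). There were 5.41 gained peaks per lost peak, against 1.09 in the fibroblasts of day 0, 2.19 for Thy1+, 1.95 for SSEA1-Thy1- and 1.93 for GFP+ cells, differences that were not tested. Gained peaks lay on every chromosome, from 28.4% of the CTCF shRNA peaks on chromosome 7 to 34.8% on chromosome 15, leaving out Y with 15 peaks. Depth behind the lists is unknown, and a deeper list can hold more peaks.

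Most gained peaks were fibroblast sites. Of the 58741, 81.6% were also in the day 0 control list and 88.9% in the Thy1+ control list, but only 38.0% in the SSEA1-Thy1- control and 12.3% in the GFP+ control. Shared peaks were in these lists at 46.0%, 84.5%, 93.4% and 52.5%. The commonest history, at 46.5% of gained peaks, was open at day 0 and in Thy1+ cells and closed in the SSEA1-Thy1- and GFP+ controls. A further 24.3% were also open in the SSEA1-Thy1- control. Sites that no other list held were rare among gained peaks, at 338 of 58741 (0.575%), and 2106 (3.59%) were in none of the 4 day 0 and Thy1+ lists.

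**Figure D1:**
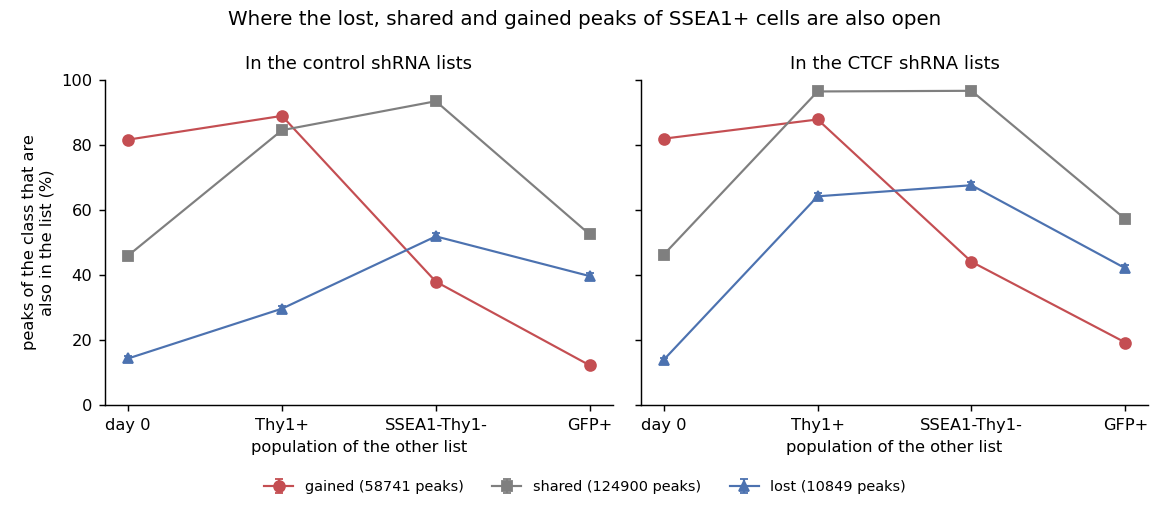
Share of the gained, shared and lost peaks of the SSEA1+ pair (y axis, percent) that are also in each of 8 other lists (x axis: population), with control shRNA lists on the left and CTCF shRNA lists on the right. Bars are exact 95% intervals over peaks. Gained peaks are commonest in day 0 (81.6%) and Thy1+ (88.9%) controls and rarest in the GFP+ control (12.3%), while lost peaks run from 14.4% at day 0 to 51.9% in the SSEA1-Thy1- control.

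The same sites can be grouped by the control lists. All groups of this paragraph were absent from the SSEA1+ control. Those that the SSEA1+ list with CTCF shRNA held are therefore gained peaks by definition, and no second line of evidence. Of 54054 sites open in the day 0 and Thy1+ controls and closed in the SSEA1-Thy1- and SSEA1+ controls, the SSEA1+ list with CTCF shRNA held 54.0%. The list with CTCF shRNA of the population before it in the sort order, SSEA1-Thy1-, held 15.6%, the GFP+ list with CTCF shRNA 10.8% and the Thy1+ list with CTCF shRNA 82.2%. So the share did not fall steadily along the sort order with CTCF shRNA: it was higher in SSEA1+ than in SSEA1-Thy1- cells. Sites that the control still held in SSEA1-Thy1- cells and closed in SSEA1+ cells, 19298 in number, were held at 88.3% in SSEA1+ and 64.1% in SSEA1-Thy1- cells with CTCF shRNA. Those 19298 sites were chosen as open in the SSEA1-Thy1- control, of whose peaks 8.74% in all were absent with CTCF shRNA. Sites closed already in the Thy1+ control, 21024 in number, were held at 7.13% in SSEA1+ cells with CTCF shRNA. Among the gained peaks, 47.8% were in the Thy1+ and not in the SSEA1-Thy1- list with CTCF shRNA. The lists differ in day as well as population: day 0, days 3 to 9 for Thy1+ and day 12 for GFP+ cells. Only the SSEA1-Thy1- and SSEA1+ lists have the same days, 6 and 9, and no list traces single cells.

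Lost peaks had another history. Of the 10849, 14.4% were in the day 0 control, 29.7% in the Thy1+ control, 51.9% in the SSEA1-Thy1- control and 39.7% in the GFP+ control. The largest group, 23.6%, was open in SSEA1-Thy1- cells alone of these 4 controls, 17.1% in GFP+ cells alone and 16.7% in none. With CTCF shRNA 64.2% of lost sites were in the Thy1+ list and 67.6% in the SSEA1-Thy1- list. These shares were below the 96.4% and 96.6% of shared peaks. Of all lost peaks 40.4% were gained in the Thy1+ pair, against 13.1% of shared peaks and 5.95% of the peaks gained in SSEA1+ cells. Sites that the control opened by SSEA1+ and kept in GFP+ cells, closed in the 3 populations before, numbered 3093. The SSEA1+ list with CTCF shRNA held 40.0% of them and the GFP+ list with CTCF shRNA 87.0%. Both controls held all of these sites by choice, and those absent from SSEA1+ cells with CTCF shRNA are lost peaks by definition. Of all GFP+ control peaks, 78308 of 91337 were shared with CTCF shRNA, so the 87.0% was near the share of the whole list. Of all SSEA1+ control peaks 92.0% were shared.

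Gained peaks lay mostly away from gene starts. Of them 2.56% lay within 1 kb of a gene start, against 4.78% of lost and 13.2% of shared peaks, and 24.5% lay over 50 kb from any protein-coding gene, against 20.7% and 17.2%. The median distance to the nearest peak of the same class was 9.66 kb for gained, 60.6 kb for lost and 5.10 kb for shared peaks, an order that is also that of their numbers. In windows of 200 kb, 10109 of the 11490 with any gained or lost peak had more gained peaks (88.0%) and 752 had more lost ones. The windows with the largest excess lay over Col5a1 (chromosome 2, 27800001 to 28000000, 25 gained and 0 lost), over Aagab, Iqch and Smad3 (chromosome 9, 63600001 to 63800000, 25 and 0) and over Mical2 and Micalcl (24 and 0). Adamts16 and Ice1 (23 and 0), Cd44 (24 and 1) and Cdc42 and Wnt4 (chromosome 4, 137200001 to 137400000, 24 and 1) followed. The window at the upstream end of Runx1 (chromosome 16, 92800001 to 93000000) went from 4 peaks to 27. A window with no protein-coding gene, on chromosome 1 at 71800001 to 72000000, went from 5 to 29. The largest excess of lost peaks in any window was 5.

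By gene, a change was called where the peak number in the gene or within 50 kb differed by at least 1.5 times and by at least 3 peaks. Of 21887 protein-coding genes 3607 were called with more peaks with CTCF shRNA, which is 16.5%, and 20 with fewer, which is 0.0914%. After the CTCF shRNA numbers were divided by the ratio of list lengths, 1.35, the calls were 448 with more and 475 with fewer, so the share of called genes with more peaks went from 99.4% to 48.5%. The excess of genes with more peaks thus went with the greater length of the CTCF shRNA list, and the groups below are given also relative to it. A relative log2 here is the log2 ratio of distinct peaks around a list's genes minus that of the whole lists, 0.44. The median log2 ratio per gene over all genes was lower, 0.23. A negative relative log2 therefore need not mean a smaller ratio than that of the median gene.

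Of the 23 lists, collagen chain genes had the highest peak ratio (1.78), followed by the Runx family (1.69). All 15 collagen chain genes had more peaks with CTCF shRNA, 11 of 15 were called against the 16.5% of all genes, and their peaks went from 204 to 363, a relative log2 of 0.40. For scale, the control lists held 367 peaks around the collagen genes on day 0, 416 in Thy1+ and 285 in SSEA1-Thy1- cells. Of the 173 gained peaks around them 1 was outside the day 0 and Thy1+ lists. Col5a1, a chain of the collagen V that starts fibrils, had 49, 45 and 30 peaks in the day 0, Thy1+ and SSEA1-Thy1- controls, and in SSEA1+ cells 13 with control and 39 with CTCF shRNA. It lies on chromosome 2 at 27886381 to 28039510, and its number with CTCF shRNA was above the 31 of SSEA1-Thy1- cells with CTCF shRNA. The neighbouring basement membrane genes Col4a1 and Col4a2 had 24 and 46, and 35 and 57. Scaled by list length, 3 of the 15 stayed past the rule, against 2.05% of all genes with more peaks under that scaling.

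Other genes of the matrix and stroma had smaller ratios. Of 13 protease and inhibitor genes 7 were called (144 to 229 peaks, relative log2 0.23), and of 24 myofibroblast and stromal genes 13 (293 to 448, 0.18). Adamts12, a secreted metalloprotease gene on chromosome 15 at 11064773 to 11349232, went from 15 peaks to 40 in SSEA1+ cells, against 25 and 24 in the SSEA1-Thy1- pair. Timp3, an inhibitor of such proteases, had 10 and 20, and Thbs1, the matrix protein thrombospondin 1, 11 and 24. Tnc, which encodes tenascin C and was among the 8 genes with the largest ratio within 10 kb, had 4 and 21, against 36 at day 0. Fbn1, the microfibril protein fibrillin 1, had 33 and 58. Each of these values with CTCF shRNA was above that of the SSEA1-Thy1- list with CTCF shRNA. Scaled by list length, 2 of the 13 and 2 of the 24 genes stayed past the rule, and Timp3 and Fbn1 did not.

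**Figure D2:**
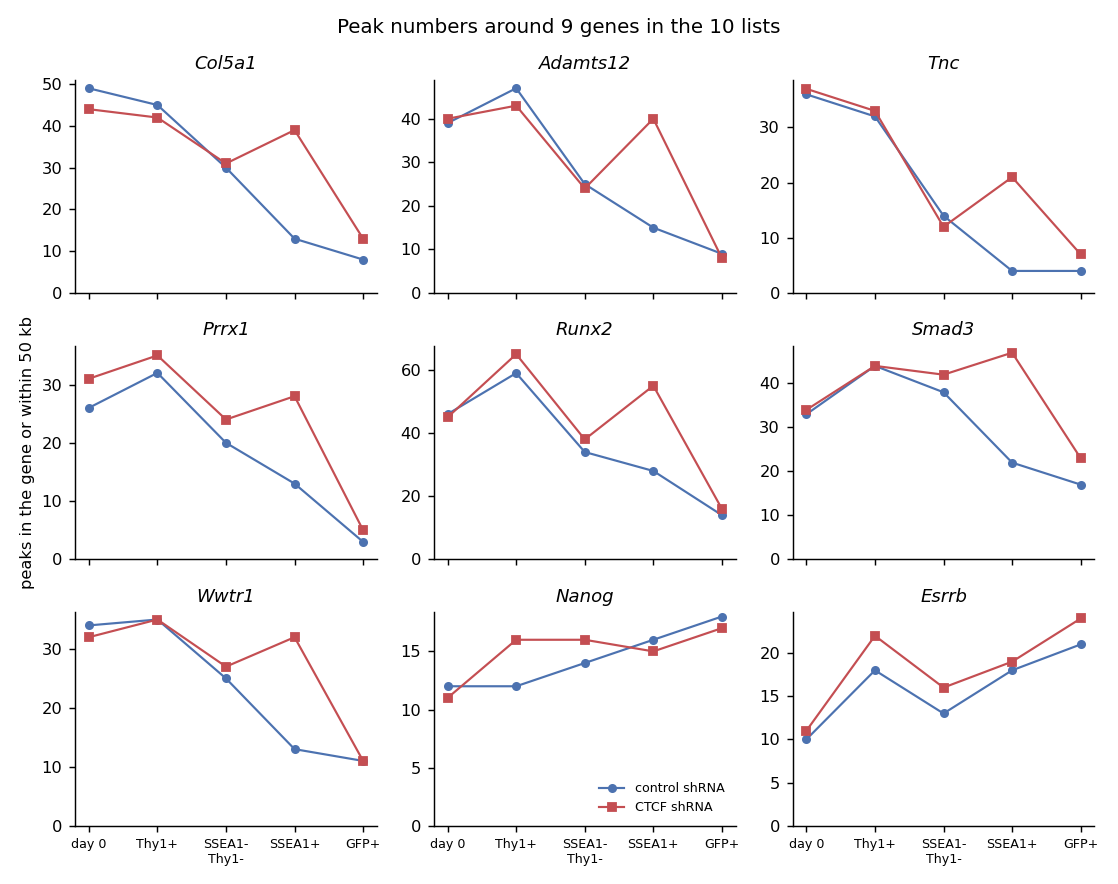
Peaks in the gene or within 50 kb (y axis, number) in 5 populations (x axis) for 9 genes, with control shRNA in blue circles and CTCF shRNA in red squares, 1 list per point. At Col5a1, Adamts12, Tnc, Prrx1, Runx2, Smad3 and Wwtr1 the control falls from Thy1+ to SSEA1+ cells while the CTCF shRNA line is higher in SSEA1+ than in SSEA1-Thy1- cells. Nanog and Esrrb differ by 1 peak between the SSEA1+ lists.

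Integrins and laminins had 274 and 367 peaks with 4 of 14 genes called, about the ratio of the whole lists (relative log2 -0.01). Within them Itga11, the collagen-binding integrin of fibroblasts on chromosome 9 at 62677855 to 62783979, went from 8 to 24. TGF-beta ligands, receptors, Smads and targets had 9 of 15 genes called and 278 and 430 peaks (0.19). Smad3, the signal transducer of TGF-beta receptors, went from 22 peaks to 47. Ltbp1, which holds latent TGF-beta in the matrix, had 43 and 72, and the co-receptor gene Tgfbr3 24 and 41. Scaled by list length, 2 of the 15 TGF-beta genes and 1 of the 14 integrins and laminins stayed past the rule, and Ltbp1 and Tgfbr3 did not.

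Transcription factor genes of the fibroblast state were divided. The Runx family had 3 of 4 genes called and 81 and 137 peaks (relative log2 0.32), with Runx2 at 28 and 55 and Runx1 at 23 and 42. The Snail, Twist and Zeb genes had 3 of 6 called and 74 and 116 peaks (0.21), with Zeb1 at 15 and 28. Other mesenchymal factors had 6 of 18 called and 283 and 397 peaks (0.05), with Prrx1 at 13 and 28 and Ebf1 at 36 and 62. Hippo pathway genes, with TEAD factors and co-activators, had 4 of 11 called and 203 and 284 peaks (0.05). Wwtr1, the TEAD co-activator TAZ, had 13 and 32. The 10 AP-1 subunit genes had 2 called and 139 and 172 peaks (-0.13), and their median log2 ratio per gene, 0.24, was close to the 0.23 of all genes. Among them Fosl2 had 6 and 15, and Jun 11 and 17. Scaled by list length, 0 of the 4 Runx genes and 0 of the 6 Snail, Twist and Zeb genes stayed past the rule. Of the mesenchymal, Hippo and AP-1 lists 2, 1 and 1 genes did, among them Prrx1, Wwtr1 and Fosl2 but not Ebf1. Over all genes the share was 2.05%.

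**Figure D3:**
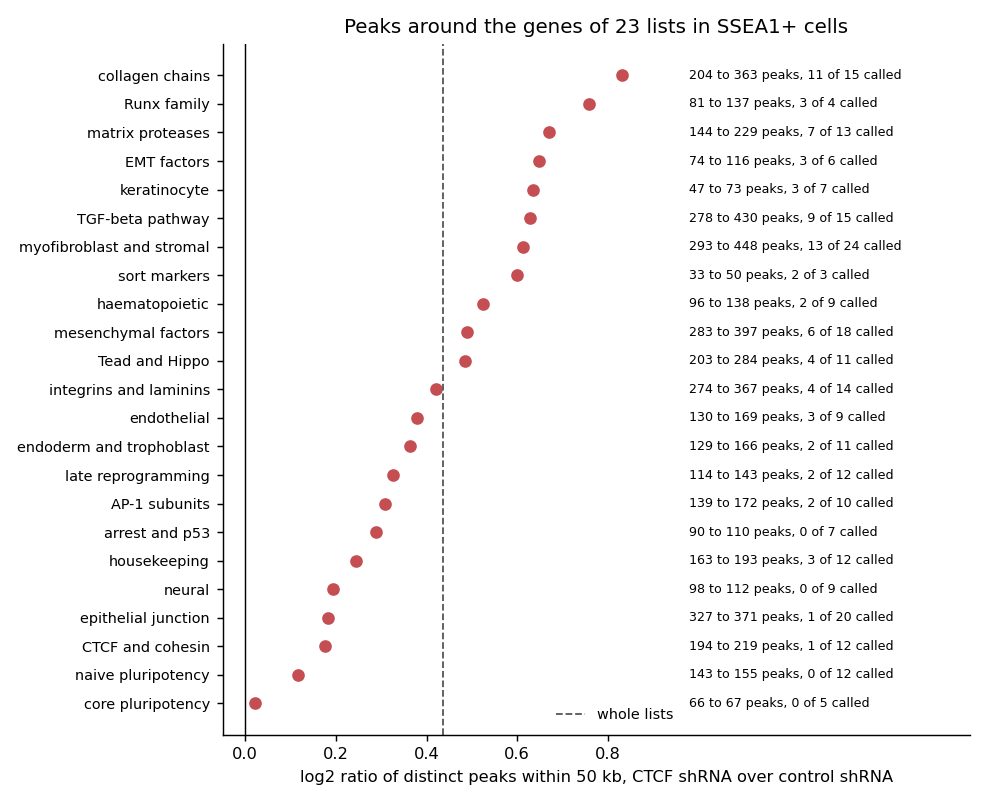
Log2 ratio of distinct peaks in or within 50 kb of the genes of 23 lists, CTCF shRNA over control shRNA in SSEA1+ cells (x axis), with the peak numbers and the called genes beside each point. The dashed line is the ratio of the whole lists, 0.44. The median log2 ratio per gene over all genes, not drawn, was 0.23. Collagen chains (204 to 363 peaks) stand farthest right of it and core pluripotency genes (66 to 67) farthest left.

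Pluripotency genes had close to equal numbers. Around the 5 core genes lay 66 peaks with control and 67 with CTCF shRNA, and the 12 naive genes 143 and 155, with 0 of 17 called in all. Relative to the whole lists these are -0.41 and -0.32, so the direction turns with the scaling. Their equality hides exchange: around the core genes 11 peaks were gained and 10 lost, and around the naive genes 28 and 16. Pou5f1, which the reporter follows, had 16 and 19 peaks, and the naive factor genes Prdm14 and Dppa3 had 14 and 16, and 12 and 17. Of 12 genes activated late in reprogramming 2 were called, the growth factor gene Gdf3 (11 and 18) and the threonine dehydrogenase gene Tdh (8 and 13), a share of 16.7% beside the 16.5% of all genes, and neither stayed past the rule after scaling. Of 20 epithelial junction genes 1 was called (327 and 371 peaks, relative log2 -0.25), and the keratin genes Krt8 and Krt18 had 15 and 21, and 16 and 22. The median log2 ratio per gene was 0.24 in the epithelial list, 0 in the core and 0.10 in the naive list, beside 0.23 over all genes.

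**Figure D4:**
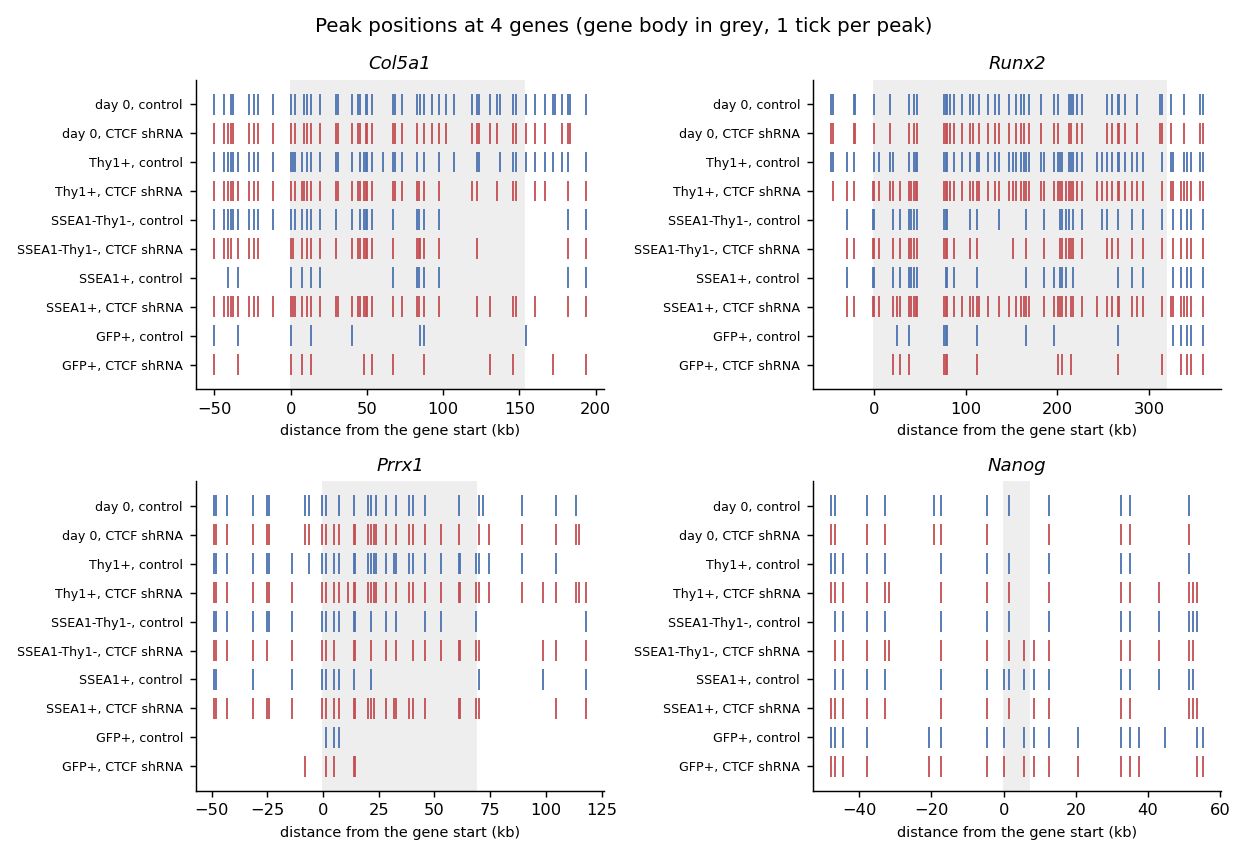
Peak centres at 4 genes by distance from the gene start in the direction of transcription (x axis, kb), 1 row per list and 1 tick per peak, with the gene body in grey. At Col5a1 (13 and 39 peaks), Runx2 (28 and 55) and Prrx1 (13 and 28) the SSEA1+ row with CTCF shRNA has more ticks than the SSEA1+ control row. At Nanog (16 and 15) a tick at the gene start is in the SSEA1+ control and both GFP+ rows only.

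At gene starts, peaks within 1 kb were compared, with either gene end taken where no table gave the strand. Of 7097 genes without a start peak in the SSEA1+ control, 588 had one with CTCF shRNA (8.29%). Of 14790 genes with a start peak in the control, 209 had none with CTCF shRNA (1.41%). In the gene lists 11 starts were gained and 8 lost. Gained were Postn (periostin), Mgp (matrix Gla protein), Col6a1, Mmp19, Itga11, Batf, Ankrd1, Csf1r, Itgam, Neurog2 and Gata4. For Mgp, Mmp19, Csf1r and Gata4 the strand was not given, so their peak may lie at the 3' end. Each of the 11 except Itgam had a start peak at day 0 and in Thy1+ control cells, and Itgam had one in Thy1+ cells only of these.

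Among lost starts Nanog, Crb3 and Tfap2c had the same history. Each had a start peak in the SSEA1+ control and in both GFP+ lists, and in none of the day 0, Thy1+ and SSEA1-Thy1- lists or the SSEA1+ list with CTCF shRNA. At Nanog, on chromosome 6 at 122707489 to 122714633, the 10 kb around held 6 peaks in the SSEA1+ control, 4 with CTCF shRNA, 3 in the SSEA1-Thy1- control and 5 in either GFP+ list. At Crb3, on chromosome 17 at 57062201 to 57065918, 16 peaks within 50 kb became 12, past the rule for fewer peaks after scaling only, as was Sall4 (10 and 9). Tfap2c encodes an AP-2 factor of trophoblast and germ cells. The others were Runx3, whose second listed start lost its peak, and Col12a1, Rad21, Ptprc and Actb. For Col12a1, Rad21, Tfap2c and Actb no strand was given. Rad21, a cohesin subunit, was the 1 lost start among the CTCF and cohesin genes, which had 1 of 12 called and 194 and 219 peaks in all.

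Genes called with fewer peaks numbered 20 before scaling and 475 after it, and 1567 genes had fewer peaks by any amount. The rule for named genes gave Scn1a, a neuronal sodium channel gene on chromosome 2, with 11 peaks in the SSEA1+ control and 7 with CTCF shRNA, against 9 and 11 in the SSEA1-Thy1- pair. The 8 largest ratios within 10 kb over all genes included Ptchd4 (2 and 11 peaks within 10 kb), Adamts12 (7 and 30), Tg (5 and 20), Tnc (3 and 13), Vps53 (5 and 19), Fmnl3 (3 and 12) and Sorcs3 (3 and 12). Tg encodes thyroglobulin of the thyroid and Sorcs3 a sorting receptor of neurons, so the genes with the largest ratios were not all genes of fibroblast function. Each of the genes listed from Ptchd4 to Sorcs3 had at least 21 peaks within 50 kb in the day 0 control.

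Markers of other cell types were counted the same way. Haematopoietic markers had 2 of 9 called and 96 and 138 peaks, endothelial 3 of 9 and 130 and 169, keratinocyte 3 of 7 and 47 and 73, endoderm and trophoblast 2 of 11 and 129 and 166, and neural 0 of 9 and 98 and 112. Relative to the whole lists these are 0.09, -0.06, 0.20, -0.07 and -0.24 on the log2 scale. Housekeeping genes had 3 of 12 called and 163 and 193 peaks (-0.19), and CDK inhibitor and p53 genes 0 of 7 and 90 and 110 (-0.15). So the keratinocyte list, with Trp63 at 11 and 21, lay in the range of the stromal list. Median log2 ratios per gene were 0.24 for housekeeping and 0.28 for CDK inhibitor and p53 genes, beside 0.23 over all genes. They were 0.28 for endothelial, 0.21 for endoderm and trophoblast, and 0.17 for neural genes. Scaled by list length, 0 keratinocyte and 0 neural genes stayed past the rule. In the haematopoietic, endothelial, and endoderm and trophoblast lists 1 gene each did. Csf1r, the macrophage growth factor receptor, had 5 and 13 peaks, and the endothelial genes Pecam1 and Kdr 8 and 17, and 8 and 16. The part of other cells in these numbers was not tested.

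The 21238 distinct promoters of 300 bases included 432 with a peak only with CTCF shRNA, 150 with a peak only in the control, 11724 with a peak in both and 8932 with none. The AP-1 letters shown in the Col6a1 promoter were in 24.8% of gained promoters (95% interval 20.8% to 29.1%), 8.67% of lost (4.70% to 14.4%), 4.70% of shared, 9.11% of promoters with no peak and 6.99% of all promoters. RUNX letters were in 7.41% of gained promoters (5.12% to 10.3%), 3.07% of shared, 4.71% of all and 6.8% of those with no peak, which lies inside the interval of gained ones. CTCF core letters were in 16.4% of gained (13.1% to 20.3%), 24.7% of lost (18.0% to 32.4%), 30.7% of shared and 23.6% of all promoters, and in 14.6% of those with no peak, again inside the gained interval. TEAD letters, shown in the Ankrd1 promoter, were in 16.4%, 10.7%, 11.1%, 16.7% and 13.6% of gained, lost, shared, peak-free and all promoters, KLF letters in 14.8%, 23.3%, 23.9%, 13.7% and 19.4%, and octamer letters in 1.62%, 0.667%, 1.62%, 1.74% and 1.66%.

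Base composition moved with these shares. The median GC content was 51.7% in gained, 58.3% in lost, 62.3% in shared and 56.3% in all promoters. AP-1 letters were in 29.7% of gained and 10.5% of shared promoters under 50% GC, and in 21.7% and 4.21% of those at 50% or more. So the difference in AP-1 letters was present on either side of that value. Of the gained promoters 352 of 432 had a peak in the day 0 control, and 26.7% of those (22.2% to 31.7%) held the AP-1 letters. Promoters open at day 0 and closed in both SSEA1+ lists, 155 in number, held them at 16.8% (11.3% to 23.6%), an interval that overlaps the former. Such overlap does not show that the shares are equal, and the difference was not tested. Distal peaks, which are most of the gained sites, were not searched, since no genome sequence was used here.

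**Figure D5:**
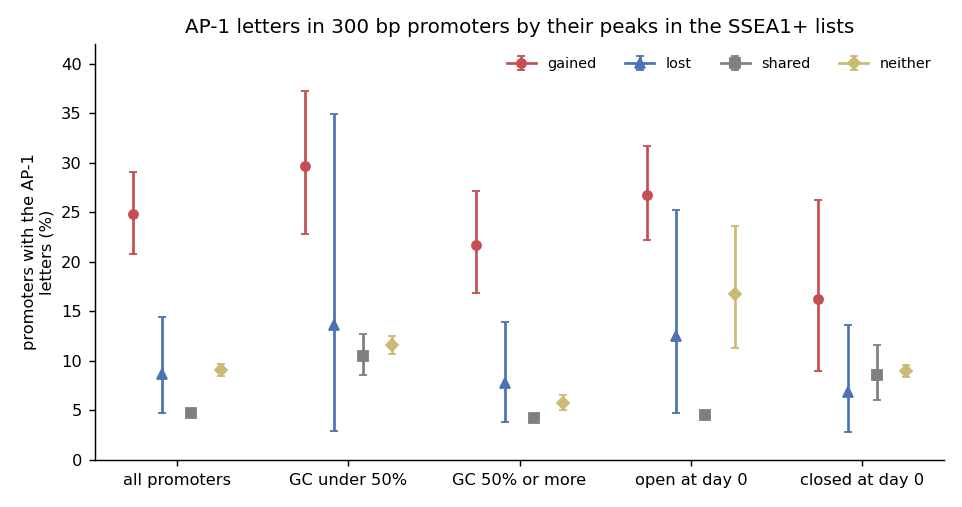
Share of promoters of 300 bases that hold the AP-1 letters (y axis, percent) by their peaks in the SSEA1+ lists (colours and symbols), for all promoters and for subsets by GC content and by a peak in the day 0 control (x axis). Bars are exact 95% intervals over promoters. Gained promoters stand at 24.8% and shared ones at 4.70% over all promoters. Among promoters open at day 0, gained ones stand at 26.7% and those in neither list at 16.8%, with overlapping bars, a difference that was not tested.

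A few miRNA genes of known roles in this transition were read too, from a list chosen after some of their values had been seen. Peaks within 10 kb of the hairpin were counted. Mature sequences from RefSeq are shown with the seed (bases 2 to 8), which pairs with targets, in capitals.
miR-199a-3p: aCAGUAGUcugcacauugguua
miR-199a-5p: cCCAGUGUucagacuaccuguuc
miR-29a-3p: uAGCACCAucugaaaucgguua
miR-29b-3p: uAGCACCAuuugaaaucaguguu
miR-290a-3p: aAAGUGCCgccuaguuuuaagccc
miR-200b-3p: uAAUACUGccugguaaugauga
The first pair comes from mesenchymal miR-199 genes, and miR-199b-3p has the same sequence as miR-199a-3p. Mir199a-1 had 4 peaks in the Thy1+ control, 1 in the SSEA1+ control and 4 with CTCF shRNA, and Mir199b had 5, 4 and 7. The differences were smaller at Mir199a-2, which gives the same mature sequences as Mir199a-1, with 6, 5 and 6. Mir214, listed with the miR-199 genes, had 4, 3 and 4. The miR-29 miRNAs, which share a seed and target collagen transcripts, lie in 2 clusters: around Mir29a and Mir29b-1 there were 4, 2 and 5 peaks in those 3 lists, and around Mir29b-2 and Mir29c 3, 3 and 2. The stem cell cluster with Mir290a had 4, 4 and 3, the cluster with Mir302a 2, 2 and 2, the epithelial cluster with Mir200b 3, 2 and 2, and the other epithelial cluster, with Mir200c, 2, 2 and 3. Of the 36 matched hairpins of the list (of 37) 16 had more peaks, 7 fewer and 13 the same number, against 37.8% with more and 10.1% with fewer over 1005 hairpins. Hairpins of a cluster share their peaks, so these are fewer than 36 separate values.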

How the data were processed

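ATAC-seq peak lists of mouse cells were read as deposited by the authors. The positions are the only values: intervals of 400 bp on chromosomes 1 to 19, X and Y of mm10 (GRCm38), with score 0 throughout, so peaks could not be ranked. The submitters' processing notes name MACS2, Bowtie2, Picard, SAMtools, cutadapt, Trim Galore and FastQC. Not given in the sources used here are versions, filters, the threshold for peaks, whether reads were shifted for the transposase, and how the 2 samples of each group were joined, and depth is unknown. Of 15 lists 10 were used, and the 5 lists of days 10 and 12 were left out because their peaks have other positions.

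Intervals were merged within a list, and classes, presence in other lists, peaks around genes and promoter letters were counted with Python 3.11.15 and NumPy 2.4.6, with intervals from SciPy 1.17.1. The code was tested on simulated lists. Genes and promoters are those of RefSeq (GRCm38.p6), where 17492 of 21887 genes have a listed start. Log2 ratios of single genes have 1 added to both numbers. The members, gene lists, motifs and the rule for named genes were chosen with earlier results of these data known. The named genes are the sort markers, list genes with a start peak in 1 list, the 3 largest differences per list, and the 8 highest and up to 8 lowest ratios within 10 kb among called genes with at least 8 peaks. Of these, 1 gene is not reported here. Alternatives were the overlap, merging, sex chromosomes, flanks and scaling.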

Additional observations from a re-analysis of the deposited data

Results flagged for a closer look

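With CTCF shRNA the shares of closing sites (in the day 0 control, not in the GFP+ control) and opening sites (the reverse) moved in opposite directions in SSEA1+ and Thy1+ cells, with 1 list per group, so the difference was not tested. The share of closing sites present was 40.5 points higher with CTCF shRNA in SSEA1+ cells (15.1% and 55.6%) and differed by -3.90 points in Thy1+ cells (79.5% and 75.6%). The share of opening sites present differed by -3.11 points in SSEA1+ cells (64.1% and 61.0%) and was 16.0 points higher in Thy1+ cells (49.6% and 65.6%). At day 0, where the control held all closing sites by choice, their share differed by -4.02 points, about as in Thy1+ cells. Closing and opening sites differed by 2.39 and 5.8 points in SSEA1-Thy1- cells. In GFP+ cells, whose control shares were fixed by choice, they differed by 11.7 and -16.3 points. Of the peaks of the SSEA1+ control list, the SSEA1-Thy1- list with CTCF shRNA (163857 peaks) held 94.3%, the Thy1+ list with CTCF shRNA (213386 peaks) 93.8% and the SSEA1+ list with CTCF shRNA (183640 peaks) 92.0%.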

How the results depend on the processing

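The numbers of lost, shared and gained peaks, and the gained peaks per lost peak, stayed within 1.5 times of the reported values with an overlap of 200 bp, with peaks widened by 500 bp, without merging and without chromosomes X and Y: lost peaks ranged from 9080 to 10860 and gained peaks from 52900 to 59011. With peaks widened by 500 bp, gained peaks were present at 84.0% in the day 0, 90.9% in the Thy1+ and 17.4% in the GFP+ control, and lost peaks at 23.8% in the day 0, 59.1% in the SSEA1-Thy1- and 44.3% in the GFP+ control. Flanks of 20 and 100 kb gave 3146 and 3452 genes with more peaks and 28 and 25 with fewer. Scaling by the list totals gave 448 and 475, and the number of gene lists with a larger share of genes called with more peaks than all genes went from 17 to 11. That last setting for gene lists, and the restriction of gene starts to genes with a listed start (439 gained, 150 lost), were chosen after seeing the data. No paired analysis was possible because each group has 1 list. Leaving out a sample and a stricter peak threshold could not be run for the same reason and because the score is 0. Without depth, absence of a peak means only that it was not called.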

Other observations

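From SSEA1-Thy1- to SSEA1+ cells the control list closed 28948 sites (19.1%) and opened 13457, whereas with CTCF shRNA 17234 closed (10.5%) and 37017 opened. From SSEA1+ to GFP+ cells 48.5% of the control peaks and 54.9% of the CTCF shRNA peaks closed. At Col5a1, Adamts12 and Tnc the GFP+ lists had 8 and 13, 9 and 8, and 4 and 7 peaks within 50 kb. These genes were named for large differences in SSEA1+ cells. The share of all genes that pass the rule in GFP+ cells was not counted, so no call is given. Around the 15 collagen genes the GFP+ lists had 121 and 166 peaks, where the whole GFP+ lists differ by a ratio of 1.13.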
